A study of Homo sapiens with 10 samples.

Results

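The zinc finger genes of chromosome 19 were compared between the bladder cancer cell line T24, of human origin, and T24R2, a cisplatin-resistant line that had been derived from T24 by serial exposure to cisplatin. The members were the protein-coding genes of chromosome 19 whose symbol is ZNF followed by digits and whose counts summed to 200 or more over the 10 RNA-seq libraries. This rule used position, symbol and overall abundance but not the difference between the lines, and 187 of 246 candidate genes met it, of 61533 genes in the tables. Both lines were grown in the same serum-containing RPMI medium and sampled on day 3, with 5 libraries of each. T24R2 was obtained as a gift from another laboratory and is a single derived line, so that changes of the resistant state and changes of this line cannot be told apart. The methods of the study describe T24R2 as kept in cisplatin, whereas the sample labels list no drug, and whether drug was present at harvest was not settled. Whether the 5 libraries of a line came from separate cultures is not stated, so that p-values measure the spread between these libraries, which may be technical.

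ZNF proteins of the C2H2 kind carry rows of zinc fingers, short loops held by cysteine and histidine residues around a zinc ion, with which they bind DNA. Many also carry a KRAB domain, which binds the scaffold protein TRIM28; TRIM28 brings in the histone methyltransferase SETDB1 and heterochromatin proteins, and the bound DNA is silenced. The best known targets of this family are transposable elements. The genes arose largely by repeated tandem duplication, and on chromosome 19 they lie in clusters of related copies, some of them specific to primates.

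The libraries held 9257843 to 10840954 counts each. Members are genes of low abundance: their mean level over both lines ran from 2.25 to 103 CPM (counts scaled to library size, here by the TMM method), with a median of 9.51. All 187 passed the filter on low counts, and each had at least 1 count in every library. Together they took between 0.202% and 0.218% of all counts in the T24 libraries and between 0.274% and 0.284% in the T24R2 libraries. The lines also differed in markers of cell type. Of 15 urothelial and epithelial markers, 9 exceeded 1 CPM in T24 and 6 in T24R2, and their summed level was 5010 to 5744 CPM in T24 against 3028 to 3232 in T24R2. UPK1B, UPK3A and CDH1 had at most 3 counts in any library of either line, and EPCAM and KRT19 had at most 3 in any T24R2 library. The summed level of 4 mesenchymal markers was 8300 to 9883 CPM in T24 against 19631 to 23188 in T24R2, that of the endothelial markers PECAM1 and CDH5 was 225 to 277 CPM against 1.51 to 1.92, and blood markers were near 0 in both lines. The part of these differences in the results below was not tested. In bulk libraries, fewer cells that express a gene and less RNA of it per cell cannot be told apart.

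The members were shifted towards T24R2. A gene was called when edgeR's quasi-likelihood test gave a Benjamini-Hochberg adjusted p under 0.05, over all 16181 genes tested, and its log2 fold change exceeded 0.5 in size. By this rule 67 of the 187 members (35.8%) rose in T24R2, against 24.9% of all genes tested, and 14 (7.49%) fell, against 26.5% of all genes tested. The other 106 members passed in neither direction. The median log2 fold change of the members was 0.37, against 0.01 over all genes tested, and 136 members had a positive value. The libraries of the lines did not overlap for 69 members that were higher in T24R2, against 29.9% of all genes, and for 21 that were lower, against 31.3% of all genes. With library size alone in place of TMM scaling, the median of all genes tested moved to 0.18 and that of the members to 0.53, so that the distance between them stayed at 0.35. By that scaling 95 members were called higher and 12 lower, and the shares of all genes called were 32.2% higher and 21.2% lower.

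A log2 fold change below -1 was seen in 4.28% of members and in 14.2% of all genes tested, and one above 1 in 8.56% and 11.9%. The count minimum bears on the first of these shares: of all 206 candidates that could be tested, 18 (8.74%) had a value below -1. The 19 candidates added here pass the filter on low counts more readily when 1 line alone is high, and 40 others could not be tested. Neither share is therefore free of selection. Values between 0.5 and 1 were more common among members, with 27.3% of members and 13.9% of all genes. The members' 10th and 90th percentiles were -0.32 and 0.95, against -1.30 and 1.12 over all genes tested. The ZNF genes of other chromosomes leaned the same way, with 77 of 222 tested (34.7%) called higher, 29 (13.1%) called lower and a median of 0.26. With the same count minimum as the members, 73 of 211 (34.6%) were called higher and 25 (11.8%) lower, again with a median of 0.26. Of 695 other protein-coding genes tested on chromosome 19, 25.5% were called higher and 19.7% lower, with a median of 0.13. Protein-coding genes whose count sum lay in the range of the middle 80% of members, 385 to 2862, had a median of 0.04, with 27.5% of 4219 called higher and 27.1% called lower. These lists are given as descriptions, and the differences between them were not tested.

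**Figure D1:**
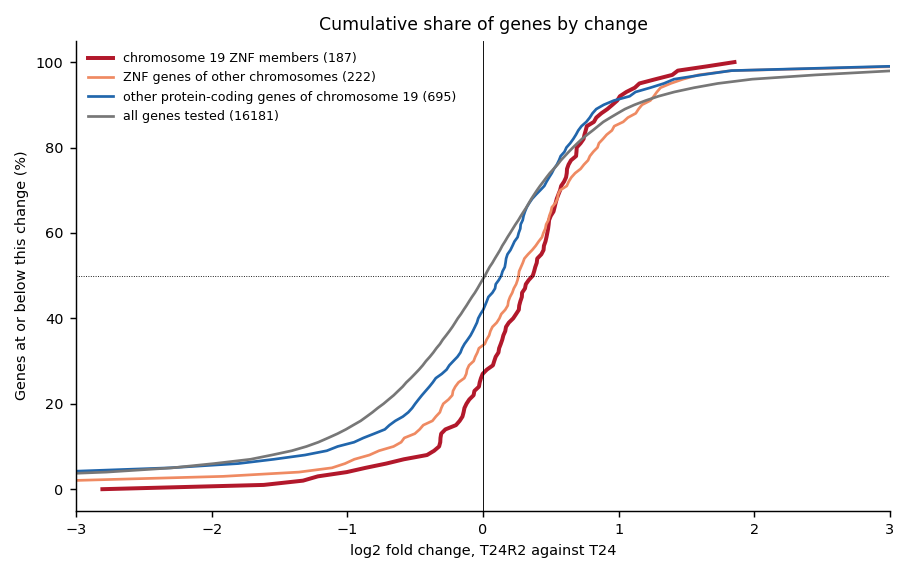
Cumulative share of genes (vertical axis, %) by log2 fold change of T24R2 against T24 (horizontal axis) for the members and 3 comparison lists. The curve of the members crosses 50% at 0.37, to the right of all genes tested at 0.01, and its lower tail is the shortest of the 4. Of these lists the members alone were held to the count minimum, which takes out some large falls.

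The shift was also seen in sums and in single libraries. The summed level of all members was 2226 ± 57.6 CPM in T24 and 2639 ± 29.5 CPM in T24R2 (mean ± SD, n = 5), and the median member of T24R2 stood at 129% of its T24 level. Relative to the mean of the T24 libraries and with 0.5 CPM added to each value, the median member lay between -0.05 and 0.05 on the log2 scale in the single T24 libraries and between 0.28 and 0.34 in the single T24R2 libraries, so that the lines did not overlap. Standard errors of the members' log2 fold changes ran from 0.05 to 0.29, with a median of 0.14.

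**Figure D2:**
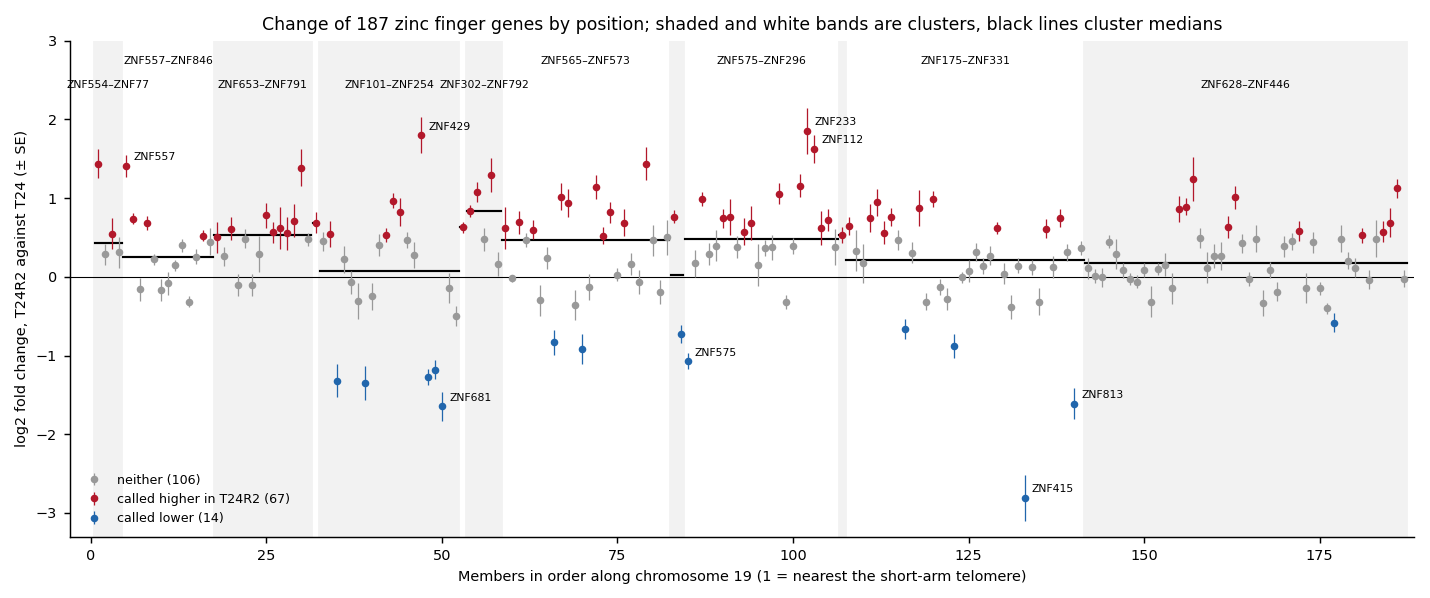
Log2 fold change of T24R2 against T24 (vertical axis, points with standard error bars) for the 187 members in their order along chromosome 19 (horizontal axis). Red points are the 67 called higher, blue points the 14 called lower and grey points the rest; bands mark clusters and black lines their medians, and red points are spread over nearly every band while the 7 lowest blue points lie in 2 of them.

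The largest rise was that of ZNF233 (chromosome 19, 44259880 to 44275317, build hg38), a KRAB zinc finger gene. It was at 1.14, 0.421, 0.914, 1.61 and 0.756 CPM in T24 and at 3.21, 3.38, 3.26, 4.28 and 3.54 CPM in T24R2. Every T24R2 library lay above every T24 library, and the log2 fold change was 1.85 (SE 0.29, adjusted p = 4.7e-07). Its neighbour ZNF112 (44326555 to 44367217) was at 1.76, 3.68, 2.29, 3.23 and 3.46 CPM in T24 and at 8.99, 9.54, 7.87, 9.0 and 9.24 CPM in T24R2. The T24R2 libraries of ZNF112 were close together and far above the T24 libraries, for a log2 fold change of 1.63 (SE 0.18, adjusted p = 1.8e-10). ZNF112 shares 12% of its exon length with another gene on the same strand, and fragments that fell in such shared parts were not counted for either gene. ZNF429 (21496682 to 21556270), in a cluster described below, was at 1.56, 1.89, 1.03, 1.94 and 1.40 CPM in T24 and at 6.88, 5.11, 4.32, 5.61 and 5.60 CPM in T24R2. Its lines were well apart, with a log2 fold change of 1.80 (SE 0.23, adjusted p = 4.3e-09).

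The 5 next rises each came from a different cluster. ZNF557 had the tightest values: 4.26, 4.63, 4.46, 5.16 and 4.54 CPM in T24 against 11.7, 12.2, 13, 11.9 and 12.8 CPM in T24R2 (log2 fold change 1.41, SE 0.14, adjusted p = 7.2e-12). ZNF554 was at 2.74 to 3.98 CPM in T24 and at 6.33 to 11.4 CPM in T24R2 (log2 fold change 1.44, SE 0.18, adjusted p = 4.3e-09). Both genes encode KRAB zinc finger proteins, and neither overlapped between the lines. ZNF793 was at 1.73 to 4.68 CPM in T24 and at 5.89 to 8.93 CPM in T24R2, for a log2 fold change of 1.44 (SE 0.21, adjusted p = 1.4e-07). ZNF490 was at 1.30 to 3.01 CPM against 4.19 to 7.07 CPM (log2 fold change 1.38, SE 0.23, adjusted p = 1.7e-06), and 51.1% of its exon length is shared with another gene on the same strand, so that its level is uncertain. The narrowest separation was that of ZNF30, whose T24R2 libraries at 4.13, 6.85, 8.45, 7.31 and 7.47 CPM began just above the highest of its T24 libraries at 4.05, 2.10, 2.51, 3.33 and 1.84 CPM (log2 fold change 1.30, SE 0.21, adjusted p = 1.1e-06). In all, 16 members rose by more than 1 on the log2 scale.

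The largest fall was that of ZNF415 (chromosome 19, 53107879 to 53133077), which has been described as a repressor of p53 and AP-1 dependent transcription. It was at 5.19, 3.26, 5.14, 3.44 and 5.29 CPM in T24 and at 0.459, 0.694, 0.672, 0.624 and 0.688 CPM in T24R2. The lowest T24 library stood far above the highest T24R2 library, and the log2 fold change of -2.81 (SE 0.29, adjusted p = 3.5e-11) was the largest change of any member in either direction. ZNF813 (53467733 to 53496255), farther along the same cluster, was at 7.99, 6.10, 8.11, 7.10 and 7.02 CPM in T24 and at 1.93, 2.17, 2.21, 2.05 and 3.54 CPM in T24R2. One T24R2 library was higher than the others but still below all T24 libraries (log2 fold change -1.61, SE 0.20, adjusted p = 2.0e-09). ZNF575 (43525497 to 43536130), a gene of few fingers and no KRAB match, was at 26.8, 28.4, 28.0, 27.1 and 26.8 CPM in T24 and at 15.9, 13.4, 9.89, 14.0 and 12 CPM in T24R2. It was the most abundant of the members that fell this far in T24, and it fell by 1.07 on the log2 scale (SE 0.10, adjusted p = 2.7e-12) in a cluster where 11 members rose. The other 5 of the 8 largest falls lie in a single cluster and are given with it. For each of these 16 members an exact two-sided permutation test of the CPM values gave p = 0.00794, the smallest that 5 against 5 libraries allow. The 16 were chosen by the size of their change in the same values, so that this p adds no support. Libraries without overlap were also common among all genes tested, at 29.9% in the higher and 31.3% in the lower direction.

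**Figure D3:**
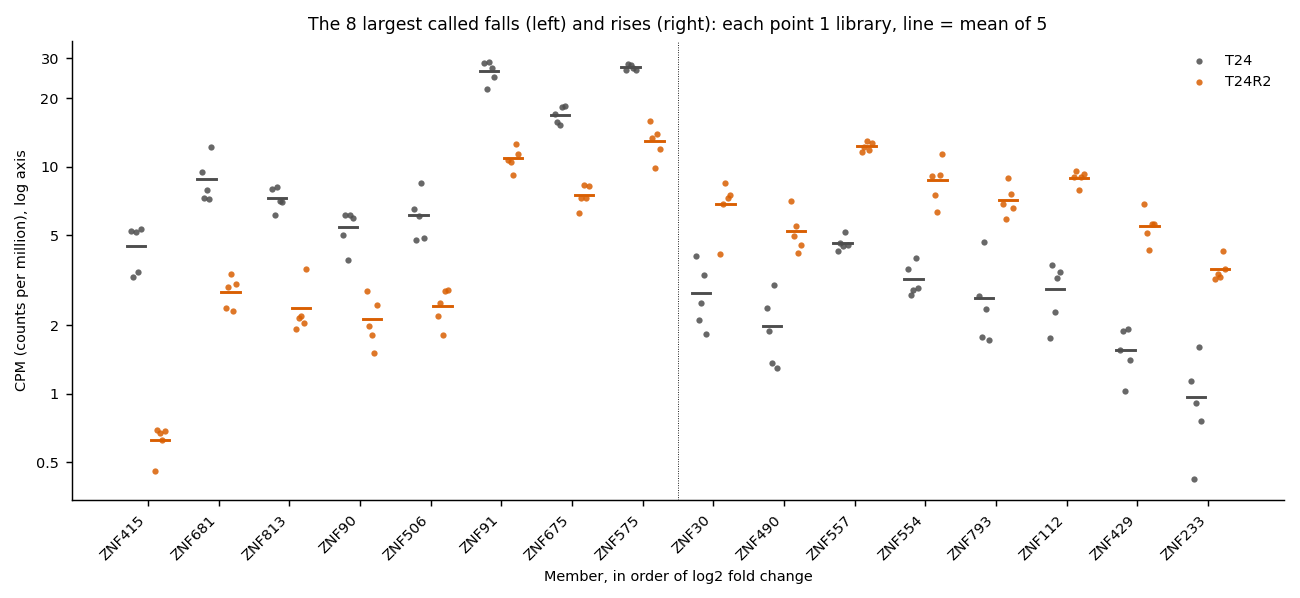
CPM (vertical axis, log scale) in each of the 10 libraries for the 8 largest falls and the 8 largest rises among called members (horizontal axis, in order of change). Points are libraries and short lines means of 5; the lines do not overlap for any of the 16 genes, and ZNF415 lies lowest in T24R2 at 0.459 to 0.694 CPM.

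To read the changes by position, all 246 candidates were ordered along the chromosome, and a gap of 1 Mb between neighbouring starts opened a new cluster. This gave 16 clusters, of which 13 held members and 9 held 4 or more. The medians of those 9 clusters were all above 0, from 0.08 to 0.84, and so were those of the clusters drawn with a gap of 0.5 Mb (10 clusters) or 2 Mb (6 clusters). When the tested candidates below the count minimum were included, the medians ran from -0.10, in the cluster ZNF101 to ZNF254, to 0.84. Candidates this low are tested more readily when 1 line alone is high, as described below. The arms of the chromosome were alike: 20 of 52 members rose and 5 fell on the short arm (median 0.40), and 47 of 135 rose and 9 fell on the long arm (median 0.37). Between neighbouring members of a cluster the log2 fold changes had a Pearson correlation of 0.22 over 174 pairs, and of 0.17 over the 155 pairs outside the cluster ZNF101 to ZNF254. Both values had the same sign in 62.1% of the 174 pairs, where 72.7% of all members had a positive value. Pairs share members and libraries, so that this is a description only.

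In 4 of the 9 clusters no member was called lower. The cluster nearest the short-arm telomere, ZNF554 to ZNF77 (2819868 to 2944971), held 4 members, all with positive values and 2 of them called higher (median 0.43). In ZNF557 to ZNF846, 4 of 13 members rose (median 0.26), and in ZNF653 to ZNF791, 8 of 14 rose (median 0.53). The small long-arm cluster ZNF302 to ZNF792 had the highest median, 0.84: 3 of its 5 members rose, with values from 0.17 to 1.30, and ZNF30 led them. The lowest log2 fold change of a member in these 4 clusters was -0.31. Below the count minimum, however, ZNF653 to ZNF791 also held 3 candidates called lower, ZNF69 (-6.38), ZNF439 (-4.88) and ZNF844 (-2.37), and 1 called higher, ZNF442 (0.98). ZNF69 and ZNF439 had at most 3 counts in every T24R2 library, so that the sizes of their changes are not well measured. Of the clusters with a single member, ZNF333 (0.69), ZNF507 (0.63) and ZNF473 (0.54) were each called higher. The pair ZNF574 to ZNF526 was split, with 1 member called higher (0.76) and ZNF526 called lower (-0.72).

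Rises and falls stood side by side in the other clusters. In ZNF565 to ZNF573, 10 of 24 members rose and 2 fell (median 0.47). ZNF793 rose most there, while ZNF568, whose mouse counterpart represses a placental promoter of Igf2, fell from 5.98 ± 1.03 to 3.15 ± 0.481 CPM (mean ± SD, n = 5; log2 fold change -0.92, SE 0.19, adjusted p = 4.8e-05). In ZNF575 to ZNF296, 11 of 22 members rose, ZNF575 alone fell (median 0.49), and 20 had positive values. In ZNF175 to ZNF331, 10 of 34 rose and 4 fell (median 0.22). ZNF480 rose most in that cluster, from 12.2 ± 0.891 to 24.2 ± 2.82 CPM (log2 fold change 0.99, SE 0.10, adjusted p = 3.2e-11), and ZNF415 fell most. The cluster nearest the long-arm telomere, ZNF628 to ZNF446, held the most members and had the lowest median of these 4, 0.18, with 10 of 46 members called higher and 1 called lower. The largest rise of a member there was that of ZNF547, from 1.35 ± 0.639 to 3.23 ± 0.377 CPM (log2 fold change 1.24, SE 0.28, adjusted p = 0.00016). The only member called lower there was ZNF417, from 14.3 ± 1.75 to 9.50 ± 0.755 CPM (log2 fold change -0.59, SE 0.12, adjusted p = 3.8e-05), which with library size alone had a log2 fold change of -0.42 and was not called. ZNF417 and its near-copy ZNF587 are known to bind endogenous retroviruses, and ZNF587 had a log2 fold change of -0.40 (SE 0.06, adjusted p = 5.4e-07), short of the fold threshold. Only uniquely mapped reads were counted, so that the levels of such copies are uncertain where their sequences agree. Of 6 tested candidates of this cluster below the count minimum, ZNF582 (-7.15), ZNF606 (-5.03), ZNF583 (-3.94) and ZNF671 (-2.18) were called lower and ZNF497 (3.02) higher. ZNF582 and ZNF606 had at most 3 counts in every T24R2 library, so that the sizes of their changes are not well measured.

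Other genes that lie between the members were also measured. Over all cluster intervals 82 other protein-coding genes were tested, 24 of which (29.3%) were called higher and 16 (19.5%) lower, with a median log2 fold change of 0.05. In the interval ZNF557 to ZNF846 the 30 other genes had a median of 0.02, with 8 called higher and 9 lower, and in ZNF575 to ZNF296 the 18 other genes had a median of 0.05, with 6 called higher and 3 lower. The interval ZNF565 to ZNF573 differed from these: its 3 other genes, ZFP14, ZFP82 and ZFP30, are themselves zinc finger genes under another name, and all 3 were called higher (0.63, 0.76 and 0.79 on the log2 scale). The 13 other genes of the interval ZNF628 to ZNF446 (median -0.08) also include zinc finger genes under another name. Of these, ZIK1 (-2.16) was called lower, ZSCAN22 (0.70) was called higher and ZSCAN5A (0.30) was not called.

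**Figure D4:**
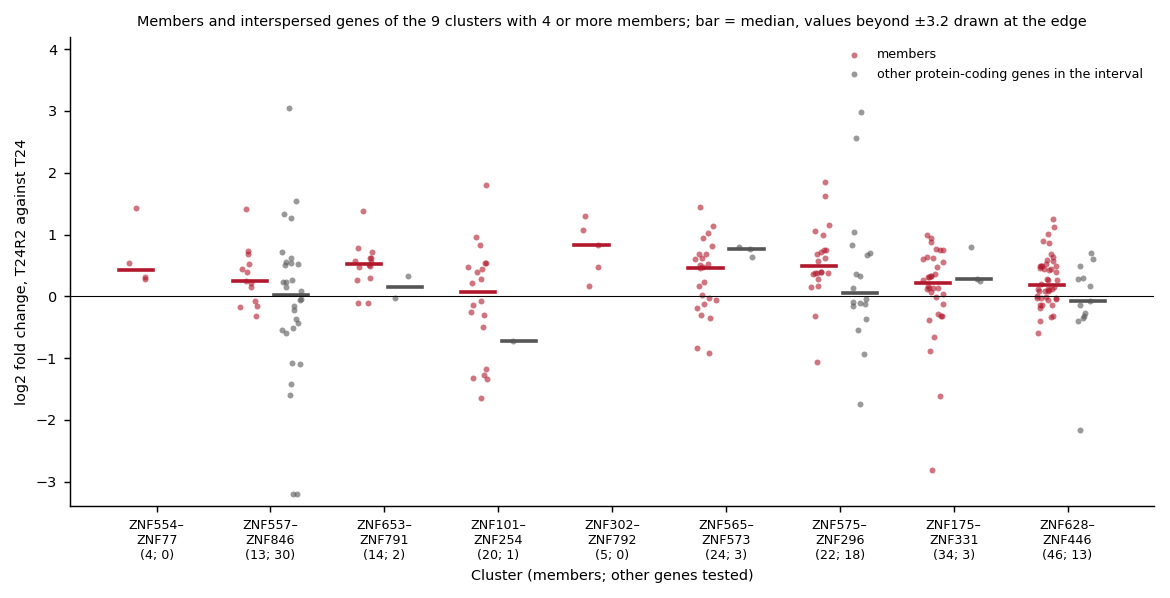
Log2 fold change (vertical axis) of members (red) and of other protein-coding genes in the same interval (grey) for the 9 clusters with 4 or more members (horizontal axis, numbers of genes in parentheses). Each point is a gene and each bar a median; the red medians run from 0.08 to 0.84, and in the intervals with the most other genes the grey medians are 0.02, 0.05 and -0.08. Grey points include zinc finger genes under other names.

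The cluster ZNF101 to ZNF254 (chromosome 19, 19668796 to 24129968), next to the centromere on the short arm, was the most divided. It has 37 candidates, of which 20 were members; 5 rose, 5 fell, and the values ran from -1.65 to 1.80 with a median of 0.08. The median became -0.07 when the 1 member with more than 10% same-strand overlap was left out. With the 6 tested candidates below the count minimum, 6 rose and 8 fell, and the median was -0.10. The same selection of low candidates by the filter applies here. This cluster consists of closely related KRAB zinc finger genes that expanded in primates. Runs of members with the same sign were seen along it. The 7 consecutive members from ZNF430 to ZNF429 all had positive values (median 0.53), and ZNF714, ZNF431, ZNF708 and ZNF429 among them were called higher. The 5 consecutive members from ZNF91 to ZNF254 all had negative values (median -1.18), and ZNF91, ZNF675 and ZNF681 were called lower. These runs were picked out after the values were seen, and runs are not particular to this cluster. Longer runs of positive values lay elsewhere, with 13 members from ZNF576 to ZNF234 and 10 from ZNF543 to ZNF549. The longest run of negative values in another cluster had 4 members, from ZNF528 to ZNF83.

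ZNF91 (23304991 to 23395471), which is known to repress SVA and L1 retrotransposons, was at 28.5, 22.1, 29.0, 27.2 and 24.9 CPM in T24 and at 10.7, 10.5, 9.21, 12.6 and 11.4 CPM in T24R2. The lines were far apart, and the log2 fold change was -1.27 (SE 0.10, adjusted p = 4.4e-14). ZNF675 (23525631 to 23687220), described as an inhibitor of TRAF6 signalling, was at 17, 15.7, 15.2, 18.3 and 18.5 CPM in T24 and at 6.24, 7.28, 8.35, 7.31 and 8.26 CPM in T24R2. It fell by 1.18 on the log2 scale (SE 0.12, adjusted p = 2.2e-11), with no overlap of the lines. ZNF681 (23739195 to 23758891) was at 9.44, 7.26, 7.88, 7.21 and 12.2 CPM in T24 and at 2.39, 2.95, 3.36, 2.32 and 3.05 CPM in T24R2, for a log2 fold change of -1.65 (SE 0.19, adjusted p = 3.1e-10). The run ended with ZNF726 (-0.14, adjusted p = 0.51) and ZNF254 (-0.49, adjusted p = 0.00071), neither of which was called. Away from this run, ZNF90 fell from 5.41 ± 0.973 to 2.13 ± 0.527 CPM (log2 fold change -1.35, SE 0.22, adjusted p = 7.9e-07) and ZNF506 from 6.14 ± 1.53 to 2.45 ± 0.442 CPM (log2 fold change -1.32, SE 0.21, adjusted p = 5.2e-07). Opposite-strand genes cover 22.7% of the exon length of ZNF90. ZNF93, a repressor of L1 elements that lies between them, was at 10.3 ± 2.42 and 9.87 ± 1.58 CPM and did not pass the test (log2 fold change -0.07, SE 0.14, adjusted p = 0.68).

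**Figure D5:**
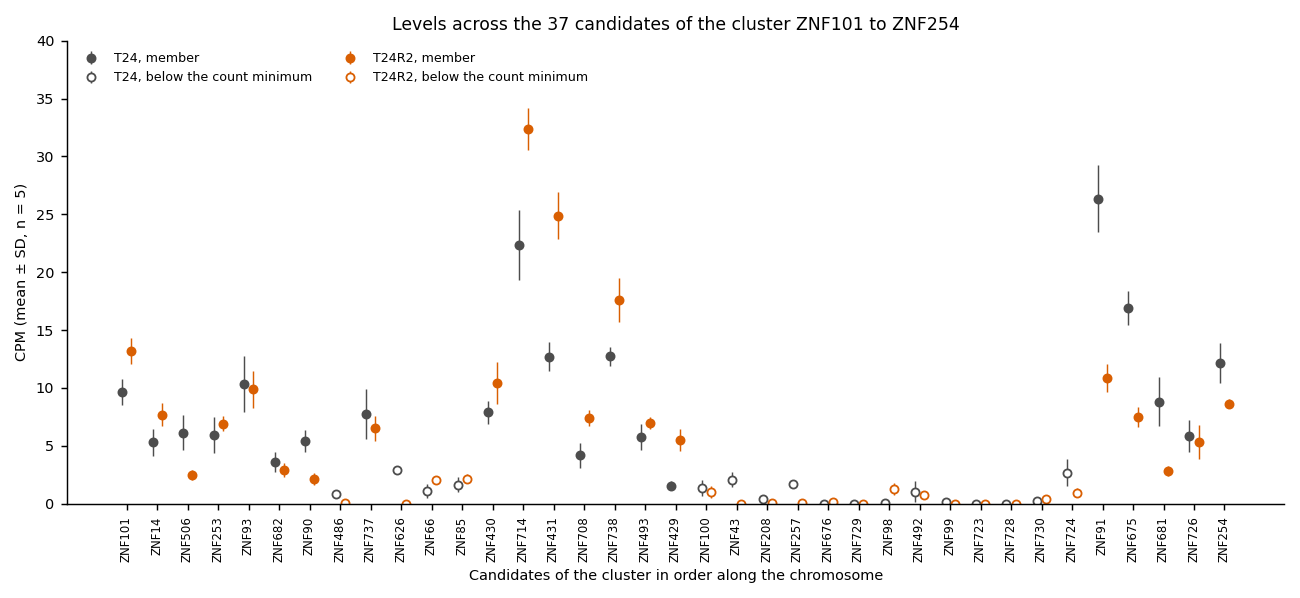
CPM (vertical axis, mean ± SD of 5 libraries) in T24 (grey) and T24R2 (orange) for the 37 candidates of the cluster ZNF101 to ZNF254 in their order along the chromosome (horizontal axis). Filled points are members and open points candidates below the count minimum; orange lies above grey from ZNF430 to ZNF429 and below it from ZNF91 to ZNF254.

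Promoters are shown for neighbours that moved together, for a gene of the same cluster that moved the other way and for a gene of another cluster. Given are the 250 bases before the RefSeq start (build GRCh38.p14), 5′ to 3′ on the strand of the gene, with CpG dinucleotides in capitals: ZNF91 (chr19:23395472-23395721, minus strand), ZNF675 (chr19:23687213-23687462, minus strand) and ZNF681 (chr19:23758892-23759141, minus strand), which fell, ZNF429 (chr19:21505352-21505601, plus strand), which rose, and ZNF415 (chr19:53132911-53133160, minus strand), the largest fall, from another cluster.
ZNF91: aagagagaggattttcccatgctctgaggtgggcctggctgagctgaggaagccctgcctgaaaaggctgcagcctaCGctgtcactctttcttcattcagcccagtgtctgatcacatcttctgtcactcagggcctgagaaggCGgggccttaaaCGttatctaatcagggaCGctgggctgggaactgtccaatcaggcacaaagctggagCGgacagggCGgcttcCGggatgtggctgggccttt
ZNF675: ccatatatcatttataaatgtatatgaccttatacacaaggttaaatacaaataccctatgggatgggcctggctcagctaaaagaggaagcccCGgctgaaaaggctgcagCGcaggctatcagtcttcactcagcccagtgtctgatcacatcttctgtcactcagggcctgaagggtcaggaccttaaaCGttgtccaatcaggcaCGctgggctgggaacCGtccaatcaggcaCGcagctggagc
ZNF681: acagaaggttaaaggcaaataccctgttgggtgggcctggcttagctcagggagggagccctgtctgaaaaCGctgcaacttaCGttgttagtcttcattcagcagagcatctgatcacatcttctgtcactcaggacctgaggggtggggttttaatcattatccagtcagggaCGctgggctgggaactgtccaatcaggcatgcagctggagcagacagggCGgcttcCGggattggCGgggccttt
ZNF429: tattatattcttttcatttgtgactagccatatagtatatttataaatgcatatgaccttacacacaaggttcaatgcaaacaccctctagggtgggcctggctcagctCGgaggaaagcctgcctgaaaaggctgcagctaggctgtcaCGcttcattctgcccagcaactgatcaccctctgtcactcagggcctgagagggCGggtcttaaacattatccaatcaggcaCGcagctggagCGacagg
ZNF415: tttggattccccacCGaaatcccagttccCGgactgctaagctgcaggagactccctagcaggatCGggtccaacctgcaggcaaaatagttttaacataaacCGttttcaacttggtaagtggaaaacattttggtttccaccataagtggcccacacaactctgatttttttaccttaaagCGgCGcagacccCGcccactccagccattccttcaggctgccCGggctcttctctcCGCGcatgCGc
Agreement is given as the share of identical columns in a global alignment of these 250 bases, with gap columns counted. ZNF91 and ZNF681, which both fell, agreed at 80.4%. ZNF675, which also fell, agreed at 62.8% with ZNF91, at 62.3% with ZNF681 and at 67.5% with ZNF429, which rose. ZNF429 agreed at 51.9% with ZNF91 and at 50.6% with ZNF681, and ZNF415 at 47.8% to 51.6% with the other 4. Because gaps are counted, these low shares do not show how alike the paired bases are. With ZNF91 and ZNF681, ZNF429 had shares (51.9% and 50.6%) close to those of ZNF415 (51.6% and 50.7%). With ZNF675 the shares differed, at 67.5% for ZNF429 and 48.3% for ZNF415. By this measure ZNF675 was closest to ZNF429, the gene that rose, but gap columns count against a pair. The windows of ZNF91 and ZNF681 run farther past a shared stretch near the end than those of ZNF675 and ZNF429. The order therefore depends in part on where the windows end, and agreement over paired bases alone was not calculated. The windows of the 4 cluster genes hold 5 to 7 CpG and that of ZNF415 holds 11.

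Over the window of 250 bases before to 50 after the start, the members of the cluster ZNF101 to ZNF254 were poor in CpG. RefSeq promoters were found for 167 of the 187 members. The median ratio of observed to expected CpG was 0.44 for the 17 promoters of this cluster and 0.80 for the 150 of the other clusters, against 0.58 over 27305 promoters of all genes. By call, the medians were 0.80 for the 62 promoters of members that rose, 0.77 for the 12 of members that fell and 0.77 for the 93 of the rest. The letters CCGGAAG, the core recognised by factors of the ETS family, or their reverse complement were found in 44.9% of the members' promoters, against 10.7% of all promoters of this length, 17.2% of those in the CpG range of the middle 80% of members and 34.1% of promoters of ZNF genes of other chromosomes. They were found in 41.9% of promoters of members that rose, in 50% of those that fell and in 46.2% of the rest. Such matches are descriptions of sequence and were not tested as binding sites.

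The proteins were also read for their fingers and for a KRAB box, by patterns run on the translated canonical transcripts of GENCODE 44. The members had between 1 and 32 finger matches with a median of 12, and ZNF91 had the most. A short KRAB pattern was found in 147 members and not in 40, some of which may carry a diverged box. Of members with the match, 57 of 147 (38.8%) rose and 11 (7.48%) fell, with a median log2 fold change of 0.40. Of those without it, 10 of 40 (25%) rose and 3 (7.5%) fell, with a median of 0.14. The median number of fingers was 12 in members that rose, 12.5 in those that fell and 13 in the rest.

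The most abundant members per exon length were a different set from those that changed most. ZNF146, a protein made almost only of fingers that is known for its raised levels in several tumours, had the highest level per kb of exon, at 25.0 CPM per kb in T24 and 24.7 in T24R2. It was at 104, 99.6, 105, 104 and 105 CPM in T24 and at 96.8, 102, 104, 108 and 99.9 CPM in T24R2. These ranges overlap widely, and the log2 fold change was -0.02 (SE 0.05, adjusted p = 0.73). ZNF580 (0.08, SE 0.09, adjusted p = 0.42) and ZNF581 (-0.03, SE 0.08, adjusted p = 0.78), which lie beside each other and share exon sequence on the same strand (15.6% and 24.9% of their lengths), did not pass either. The remaining 2 of the 5 most abundant rose. ZNF358 was at 31.8, 32.8, 25.5, 31.9 and 26.7 CPM in T24 and at 54.4, 48.6, 49.5, 48.5 and 47.8 CPM in T24R2 (log2 fold change 0.74, SE 0.07, adjusted p = 1.7e-11). ZNF428, the member with 1 finger match, was at 17.5, 23.7, 18.7, 18.7 and 16.3 CPM in T24 and at 43.5, 39.4, 31.4, 36.7 and 37.7 CPM in T24R2 (log2 fold change 0.99, SE 0.09, adjusted p = 2.9e-12). Both were clearly separated between the lines, but genes on the opposite strand cover 14.1% and 32.1% of their exon lengths, and 20.1% of that of ZNF358 is shared on the same strand.

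ZNF274 is the member known for binding to the ends of zinc finger genes themselves and bringing SETDB1 to them. It was at 12.6, 11.5, 12.7, 9.25 and 13.6 CPM in T24 and at 11.7, 13.3, 13.2, 12.5 and 14.0 CPM in T24R2. The libraries overlapped, and the log2 fold change of 0.12 (SE 0.12, adjusted p = 0.37; exact two-sided permutation p = 0.29) did not pass the test.

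The balance of rises and falls was also read below the count minimum. Just above this minimum lay ZNF233, ZNF547 and ZNF415 with count sums of 237, 238 and 241, and just below it ZNF85, ZNF69 and ZNF442 with 193, 192 and 186. Of the 59 candidates below it, 19 could still be tested, and 4 of these were called higher and 10 lower. With them, 71 of 206 tested candidates rose and 24 fell, and the median was 0.32. Many of those falls were losses of nearly all signal. ZNF69 had 48, 24, 47, 30 and 41 counts in the T24 libraries and 0, 0, 0, 2 and 0 counts in the T24R2 libraries. The ratio of T24 to T24R2 was 111, with an exact 95% interval of 30.3 to 923 that covers counting error only. ZNF626 had 27, 26, 24, 26 and 33 counts in T24 and 0 in every T24R2 library, a level at least 10.6-fold lower when 3 counts per library are taken as the floor.

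In all, 10 candidates had more than 3 counts in every T24 library and at most 3 in every T24R2 library: ZNF69, ZNF439, ZNF626, ZNF486, ZNF43, ZNF257, ZNF677, ZNF582, ZNF470 and ZNF606. The reverse was seen for 2, ZNF98 and ZNF382. Of the 53 candidates below the minimum with any count, these are 18.9% and 3.77%, against 3.88% and 3.36% of 4818 protein-coding genes with count sums of 1 to 199. Genes with the lowest sums cannot meet the condition. Candidates and other genes were not matched in abundance within this range, so that the shares are not directly comparable. ZNF69 and ZNF439 belong to the cluster ZNF653 to ZNF791, ZNF626, ZNF486, ZNF43 and ZNF257 to the divided cluster ZNF101 to ZNF254, and ZNF582, ZNF470 and ZNF606 to the cluster nearest the long-arm telomere. ZNF43 had 22, 9, 22, 20 and 23 counts in T24 and 0 in every T24R2 library, which is at least 7.49-fold lower. ZNF582, a gene whose promoter methylation has been studied as a tumour marker, had 13, 17, 16, 14 and 21 counts in T24 and 0 in T24R2, at least 6.31-fold lower. ZNF98 went the other way, with 0, 0, 0, 0 and 1 counts in T24 and 11, 24, 10, 16 and 9 in T24R2. The largest rise among the tested candidates below the minimum was that of ZNF497, with 4, 1, 2, 9 and 0 counts in T24 and 26, 41, 36, 21 and 32 in T24R2 (log2 fold change 3.02, adjusted p = 3.4e-08). Among the members themselves, 0 were as low as this throughout either line.

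Some zinc finger genes of chromosome 19 carry other names and were not members. Of 19 such genes 9 were tested, 4 of which were called higher (ZFP14, ZFP82, ZFP30 and ZSCAN22) and 1 lower. The last was ZIK1, which fell from 8.29 ± 0.739 to 1.85 ± 0.373 CPM (log2 fold change -2.16, SE 0.19, adjusted p = 6.8e-13).

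A list of 29 co-repressor genes was also read, with partners of KRAB proteins and more general silencing genes such as the DNA methyltransferases. Of these 29 genes, 8 (27.6%) were called higher and 5 (17.2%) lower, against 24.9% and 26.5% of all genes, with a median of 0.15. In a list of this size such shares can differ by a few genes, and the difference from all genes was not tested. TRIM28, the scaffold, was at 317, 345, 303, 305 and 324 CPM in T24 and at 388, 385, 406, 363 and 363 CPM in T24R2. Its libraries did not overlap, but the log2 fold change of 0.26 (SE 0.04, adjusted p = 2.6e-06) was below the fold threshold. SETDB1 was at 33.0, 30.2, 35.5, 27.7 and 34.7 CPM in T24 and at 41.6, 34.0, 48.4, 42.8 and 43.3 CPM in T24R2. Its libraries overlapped, and its log2 fold change was 0.38 (SE 0.08, adjusted p = 8.4e-05), also below the threshold.

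SUMO2, a small protein that is attached to other proteins as a modifier, was at 249, 261, 243, 253 and 231 CPM in T24 and at 138, 137, 128, 142 and 131 CPM in T24R2 (log2 fold change -0.87, SE 0.05, adjusted p = 6.0e-20). Sumoylated TRIM28 is the form that binds SETDB1, and the SUMO2 values of the lines did not overlap, with T24R2 lower in each library. ATF7IP2, a relative of the SETDB1 partner ATF7IP, was at 10.5, 9.78, 12.1, 9.14 and 10.0 CPM in T24, while T24R2 had 1 count in 1 library and 0 in the other 4. The ratio of T24 to T24R2 was 558, with an exact 95% counting interval of 99.7 to 22095. ATF7IP itself had a log2 fold change of 0.23 and was not called. Among the members of the list that rose were CBX1 (0.87), one of the heterochromatin proteins, the chromatin remodeler SMARCAD1 (0.99), and the DNA methyltransferases DNMT1 (0.63), DNMT3A (0.56) and DNMT3B (0.97), while CBX3 (-0.66), another heterochromatin protein, and the remodeler CHD4 (-0.67) fell. These lists were compared side by side only, and whether the changes of co-repressors and of zinc finger genes are linked was not tested.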

How the data were processed

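RNA-seq libraries of T24 and T24R2 (5 each, day 3) were analysed from the deposited counts. The authors prepared libraries with an NEBNext Ultra II RNA kit, aligned reads with STAR 2.7.0 to hg38, used SAMtools 1.10 to drop duplicates and reads that map more than once, and ran featureCounts 2.0.1 with the GENCODE 39 annotation on a single strand. The deposited values are raw counts per gene, neither normalized nor pooled. Fragments that overlap 2 genes on the counted strand were not assigned. The kit as named does not say whether it marks strand, so that reads of genes on opposite strands cannot be told apart: 20 members share more than 10% of their exon length with genes on the opposite strand, and 24 with genes on the same strand.

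The table of all genes was fitted with edgeR 4.0.16 (TMM, filterByExpr, quasi-likelihood test, Benjamini-Hochberg over 16181 genes) in R 4.3.3, and members were read from that fit. CPM values were scaled by TMM (factors 0.936 to 1.07). Genes were called at an adjusted p under 0.05 and a log2 fold change over 0.5 in size, the thresholds of the study. The biological coefficient of variation was 6.61%. Single genes were also compared by exact two-sided permutation. Symbols and gene types came from GENCODE 44, and promoters from RefSeq, for 216 of 246 candidates. Observed over expected CpG is the number of CpG times the length over the product of C and G counts. Promoters were aligned globally with Biopython 1.88, and gap columns were counted in the shares of agreement.

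The members and lists were chosen with earlier results of these data known. Named members were, of called members, those with the 8 largest rises and the 8 largest falls and at least 2 CPM in the higher line, the largest rise and fall of each cluster with 4 or more members, the 5 with the highest CPM per kb, and ZNF274; from the co-repressors, TRIM28, SETDB1 and the 3 with the smallest adjusted p, of which 1 is counted in its list but not reported here by name. Other genes were named after their values were seen. In all 20 pairs of libraries of a line, counts differed beyond sampling noise (chi-square over its degrees of freedom, 1.99 to 6.51). Steps were tested on simulated data. Alternatives were library size alone, upper-quartile scaling, DESeq2 1.42.0 without and with normal shrinkage, limma-voom (limma 3.58.1), other count filters, a replicate block, leaving out each library, other fold minimums, other member rules and other cluster gaps. The use of all tested candidates was added after the data were seen. MeRIP-seq data were not used here.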

Additional observations from a re-analysis of the deposited data

Results flagged for a closer look

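A library was looked at again when the gap between it and its nearest neighbour of the same line was large for a group of 5. Over 54 groups of 5 libraries (the named members and the summed level of all members, in each line) 5 such values were found, and chance gives about 1 in 20, or 2.7. ZNF813 in T24R2 replicate 5 was at 3.54 CPM against 1.93 to 2.21 CPM in the other libraries, still below every T24 library. ZNF358 in T24R2 replicate 1 was at 54.41 CPM against 47.8 to 49.5 CPM. ZNF146 in T24 replicate 2 was at 99.62 CPM against 104 to 105 CPM. ZNF580 in T24 replicate 5 was at 22.25 CPM against 27.8 to 28.5 CPM, and ZNF581 in T24R2 replicate 3 was at 26.87 CPM against 30.9 to 32.5 CPM. The values fell in 5 different libraries.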

How the results depend on the processing

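The main values were 67 members called higher, 14 called lower and a median log2 fold change of 0.37. Leaving out each library in turn gave 62 to 72 called higher, 14 to 15 called lower and medians of 0.34 to 0.38. Scaling moved the median to 0.53 with library size alone and to 0.44 with upper-quartile scaling, while the median of all genes moved to 0.18 and 0.09. A mean of at least 100 counts left 88 members, of which 32 were called higher and 6 lower. A fold minimum of 1 left 16 higher and 8 lower by construction. A count sum of 1000 or more left 88 members, of which 29 were higher and 6 lower (median 0.32). The median was 0.33 with symbols that end in a digit, 0.33 without members of opposite-strand overlap and 0.33 without those of same-strand overlap. With all tested candidates 24 were called lower and the median was 0.32. Same-numbered libraries of the lines did not deviate together (correlations of -0.02 to 0.02), so that the numbers give no pairing; a replicate block gave 67 called higher, 14 called lower and a median of 0.37. Of the named members, ZNF417 lost its call with library size alone (-0.42), and in the other 452 recalculations of named members the call and direction were kept. Medians of clusters moved by less than the spread between libraries in 164 recalculations and by more in 34. The median over all members was positive under each of these settings. The depth was 9257843 to 10840954 counts per library, and the median member was at 9.51 CPM. At this depth 40 of the 59 candidates below the count minimum had too few counts to be tested. Of the 106 members not called, 38 had an adjusted p under 0.05 and missed the fold minimum of 0.5.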
